A study of Homo sapiens with 4 samples.

Results

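The EGFR family receptors and ligands measured here were 10 human genes, EGFR, ERBB2, ERBB3, AREG, EREG, HBEGF, TGFA, BTC, NRG1 and ERRFI1. They were taken by the gene name that the array design gives a probe, with every probe of that name included, which gave 18 of the 58201 gene probes and 10 of the 43317 gene names on the array. Gene expression was measured on 1-colour microarrays after transfection with Dharmafect1 of the microRNA miR-891b or of NC1, the study's negative control RNA. The title of the series is about PSAT1, an aminotransferase of serine synthesis, in the release of vesicles and in bone metastasis. The groups were HCT116 cells with NC1, HCT116 cells with miR-891b, A549 cells with NC1 and A549 cells with miR-891b. HCT116 is an established colorectal cancer line and was grown in McCoy's 5A medium, and A549 is an established lung cancer line and was grown in DMEM. No genetic change to either line, no dose of RNA and no time after transfection was given in the sources used here.

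Each of the 4 groups was 1 array, so no difference within a line has a replicate check and no p-value is given for one. Each line had a slide of its own, so the line, its medium and the slide cannot be told apart, whereas the treatments of a line shared its slide. A level below is the log2 processed signal of a probe minus the 75th percentile of its array, so that 0 is the brightness of the probe at that percentile, and a change is the miR-891b level minus the NC1 level of the same line. Levels of different probes have no common scale and are not set against each other. A probe was taken as measured where the scanner software marked it well above background on both arrays compared, and a difference was counted at 2-fold or more. Between 44.7% and 50.3% of gene probes were well above background on an array, and no gene spot was saturated. The share of gene spots in areas of stray signal, defined below, was highest for HCT116 miR-891b, at 10.5%. It was 2.20% for HCT116 NC1, 1.83% for the miR-891b array of A549 and 0.0213% for its NC1 array. Of the markers of each line, 5 of 5 measured A549 markers were at least 2-fold higher in A549 on the NC1 arrays and 4 of 6 HCT116 markers at least 2-fold higher in HCT116, with ELF3 the other way at 1.62. With miR-891b, 5 of 6 HCT116 markers were below 0 in HCT116 (median -0.83) and 6 of 6 A549 markers were below 0 in A549 (median -0.60). The share below 0 among all measured genes was 55.5% in HCT116 and 55.6% in A549. Of the A549 markers in HCT116, AKR1B10 was higher with miR-891b by 4.47 and 3 others were lower, and ALDH1A1 and AKR1C1 were not well above background on that array. Of 8 fibroblast markers, 2 were well above background on each HCT116 array and 4 on each A549 array, and their summed signal, as multiples of the 75th percentile, was 2.67 with NC1 and 2.22 with miR-891b in HCT116, and 4.28 and 10.6 in A549. Such a sum is led by its brightest probe, in A549 by LUM at 1.03 with NC1 and 3.17 with miR-891b, while 3 of the 4 fibroblast markers measured in A549 were lower with miR-891b. DCN, COL1A2, COL3A1 and POSTN were not well above background on any array, and what the other fibroblast markers contribute to the values below was not tested. PSAT1 itself differed by -0.81 in HCT116 and by -1.58 in A549 with miR-891b.

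EGFR, ERBB2 and ERBB3 are receptor tyrosine kinases that act in pairs. EGFR binds amphiregulin, epiregulin, heparin-binding EGF, transforming growth factor alpha and betacellulin, ERBB3 binds neuregulins and has little kinase activity of its own, and ERBB2 has no known ligand and serves as a partner. The ligands are made as membrane precursors and released by proteases, the active receptors feed the RAS-ERK and PI3K-AKT branches, and ERRFI1 encodes MIG6, a feedback inhibitor that binds the active kinase. In colorectal epithelium AREG and EREG are known as ligands that the cells make for their own EGFR.

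The RNA that was transfected and the regions upstream of the neighbouring ligand genes AREG and EREG are shown first, since the treatment is defined by the former and the largest shared difference between the lines lay in the latter pair. The mature miR-891b (RefSeq, GRCh38.p14, chrX:146001100-146001121, minus strand) is given with its seed, bases 2 to 8, in capitals.
hsa-miR-891b: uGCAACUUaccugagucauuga
The DNA letters that pair with this seed, AAGTTGC, occurred in 229 of the 58201 probe sequences (0.393%) and in 0 of the 18 probes of the family. This says only that those letters are not within the probes, which cover a small stretch of each transcript. Of AREG, the coding end of the message is covered by probe 2 (chr4:75318293-75318352, hg19, plus strand), which is shown because AREG was read by a pair of probes that gave nearly the same differences.
AREG probe 2: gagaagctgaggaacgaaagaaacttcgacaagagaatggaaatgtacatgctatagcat
The 250 bases before each gene start follow (RefSeq, GRCh38.p14, plus strand, chr4:74444886-74445135 for AREG and chr4:74364895-74365144 for EREG). Capitals mark the letters of a cAMP response element (TGACGTCA), an AP-1 site (TGANTCA) or a TATA box (TATAAA), searched on both strands.
AREG promoter: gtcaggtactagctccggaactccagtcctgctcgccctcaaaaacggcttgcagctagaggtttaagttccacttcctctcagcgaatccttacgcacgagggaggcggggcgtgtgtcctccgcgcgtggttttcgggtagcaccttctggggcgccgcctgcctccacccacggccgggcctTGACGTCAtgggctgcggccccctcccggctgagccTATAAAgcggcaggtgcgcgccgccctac
EREG promoter: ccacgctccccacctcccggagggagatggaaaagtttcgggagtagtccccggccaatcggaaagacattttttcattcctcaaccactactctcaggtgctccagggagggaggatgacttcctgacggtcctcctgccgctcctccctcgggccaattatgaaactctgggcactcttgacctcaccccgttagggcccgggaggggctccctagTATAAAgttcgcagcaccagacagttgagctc
The AREG window held TGACGTCA starting 65 bases before the gene start and TATAAA starting 29 bases before it. In the EREG window TATAAA started 32 bases before the gene start. Over 35116 RefSeq promoter windows that run from 250 bases before to 50 bases after a gene start, TGACGTCA was found in 1.85%, TGANTCA in 7.71%, TATAAA in 11.5% and GGGCGG, a GC box left in lower case above, in 45.0%. Of the 10 such windows held for 8 of the 10 genes, 1 had TGACGTCA (AREG), 2 had TGANTCA (1 each of EGFR and ERBB2), 3 had TATAAA (AREG, EREG and 1 of EGFR) and 6 had GGGCGG, and no match overlapped one of another motif. These are matches of letters, and no binding was measured here.

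With miR-891b and by the probe chosen for each gene, most of the family differed by less than 2-fold in either line. The exceptions were NRG1, BTC and, by its ratio to a dim array, HBEGF. In HCT116 all 10 genes were measured, 0 were at least 2-fold lower and 1, NRG1, was at least 2-fold higher, where 0.843% of all 19105 measured genes were called lower and 1.16% higher. These shares stand for 161 and 221 genes. With the areas of stray signal left out, 143 of 16734 genes were called lower and 139 higher in HCT116. The excess of higher over lower calls there was thus not kept. In A549 9 of the 10 were measured, 0 were lower and 1, BTC, was higher, where 5.57% of 21336 genes were called lower and 4.01% higher. The members' median change was -0.13 in HCT116 and -0.22 in A549, beside medians over all measured genes of -0.041 and -0.059. Below 0 lay 6 of the 10 measured members in HCT116 and 6 of 9 in A549. Among all measured genes that share was 55.5% and 55.6%, so these counts do not set the members apart. Between the NC1 arrays, 5 of 9 measured members were at least 2-fold lower in A549 than in HCT116 (AREG, EREG, ERRFI1, BTC and ERBB3) and 1, NRG1, was at least 2-fold higher, where 16.2% of 19218 genes were called lower and 11.1% higher. The SD over all measured genes was 0.38 in HCT116, 0.61 in A549 and 1.22 between the NC1 arrays, so differences between the lines were wider for genes in general. The ERBB3 and BTC calls between the lines did not hold with normexp and quantile normalization, which gave -0.72 and -0.51. A gene is read in these counts by its probe with the highest mean level. The fibroblast sums and slide named above differ along with the lines, and in bulk RNA fewer cells with a transcript cannot be told apart from less of it per cell.

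**Figure D1:**
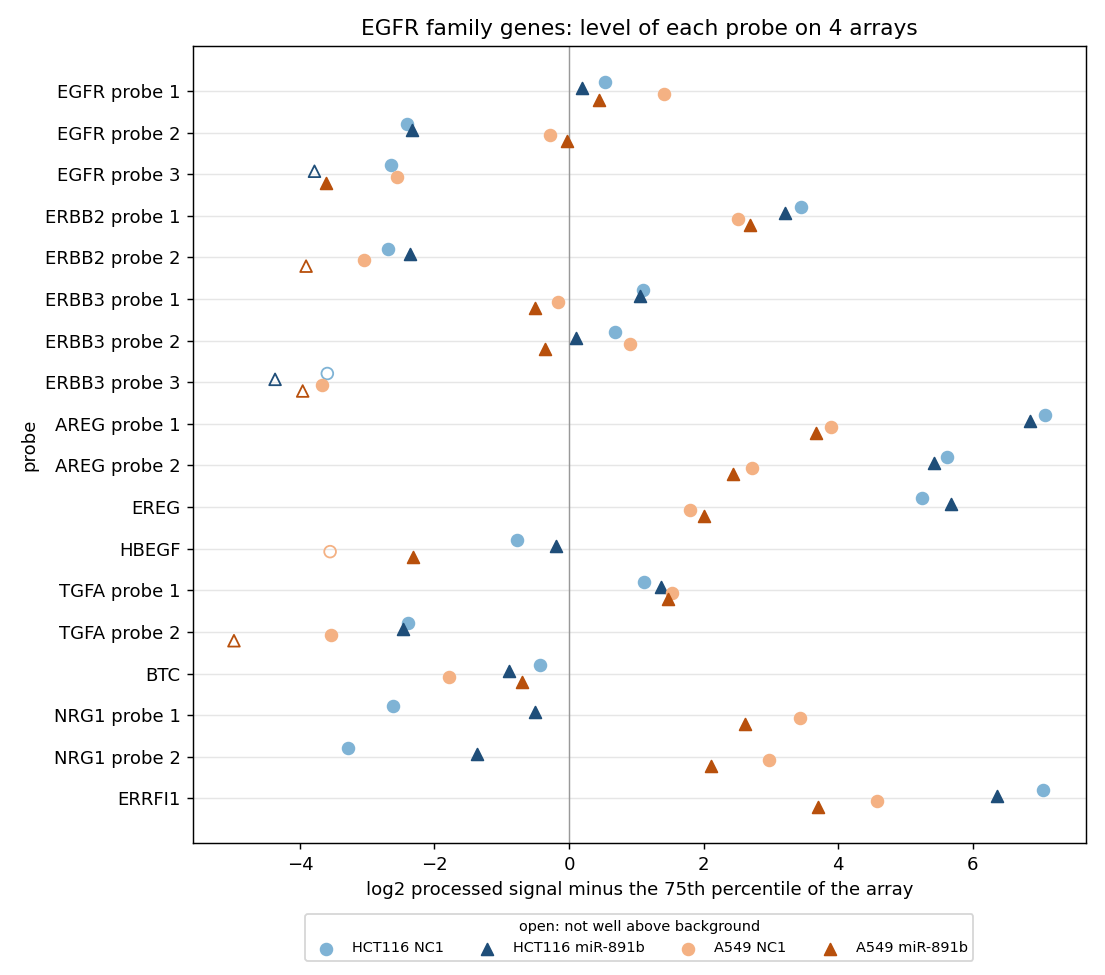
Level of every probe of the 10 genes on the 4 arrays, as log2 processed signal minus the 75th percentile of the array, with 1 symbol per array and open symbols where the probe was not well above background. AREG, EREG and ERRFI1 lie further right on both HCT116 arrays, and both NRG1 probes lie further right on both A549 arrays.

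EGFR, the receptor that names the family, was read by 3 probes for different transcript variants. Probe 1 starts at base 5409 of the full-length variant 1 (chr7:55274841-55274900, hg19). Its level was 0.54 in HCT116 NC1, 0.19 in HCT116 miR-891b, 1.41 in A549 NC1 and 0.44 in A549 miR-891b. A549 NC1 stood highest and the other 3 arrays lay within a range of 0.35. The change was thus -0.35 in HCT116 and -0.97 in A549, a 1.96-fold lower signal just inside the 2-fold limit. Probe 2 is designed on variant 3, a short form (chr7:55224558-55224617), and its levels were -2.42, -2.33, -0.28 and -0.029 in the same order. Its change was 0.086 in HCT116 and 0.25 in A549, so its sign was opposite to that of probe 1 in both lines. Probe 3 is designed on variant 2, also a short form (chr7:55231446-55231505). It gave -2.65 in HCT116 NC1, -3.78 and not well above background in HCT116 miR-891b, -2.56 in A549 NC1 and -3.62 in A549 miR-891b. That is at least 1.40-fold lower in HCT116, with the dim array at the higher of its own signal and the lowest signal well above background on it, and a change of -1.06 in A549. Probes 1 and 3 were thus lower with miR-891b in A549 and probe 2 was not. Between the NC1 arrays the A549 minus HCT116 difference was 0.87 for probe 1, 2.13 for probe 2 and 0.094 for probe 3.

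ERBB2, the partner receptor without a ligand of its own, was the only gene of the family with a repeated spot, since probe 1 (chr17:37884829-37884888, hg19) was printed 10 times on each array. Its mean levels were 3.44 in HCT116 NC1, 3.21 in HCT116 miR-891b, 2.52 in A549 NC1 and 2.69 in A549 miR-891b. All 10 spots were lower with miR-891b in HCT116, with a mean change of -0.24 ± 0.091 (SD, n = 10 spots) and a range from -0.38 to -0.075. All 10 were higher with miR-891b in A549, with a mean of 0.17 ± 0.077 (SD, n = 10 spots) and a range from 0.043 to 0.25. These SDs cover spots of 1 array pair and not cultures or labelling. Over all genes printed at 5 or more spots, the median SD of such a change was 0.061 in HCT116 and 0.071 in A549. Some of the HCT116 miR-891b spots lay in areas of stray signal, where at least 10% of neighbouring spots read as dim by the other arrays were called above background on this one. Over the 8 spots outside such areas the change was -0.23 in HCT116. Probe 2, on a different transcript model (chr17:37851136-37851195), was near background at -2.70, -2.36, -3.05 and -3.91, the last not well above it. Its change of 0.34 in HCT116 was opposite in sign to probe 1, and in A549 it was 1.81-fold lower with miR-891b, a plain ratio to the dim array. Between the NC1 arrays, ERBB2 probe 1 differed by -0.93 (A549 minus HCT116, SD 0.059 over the 10 spots).

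**Figure D2:**
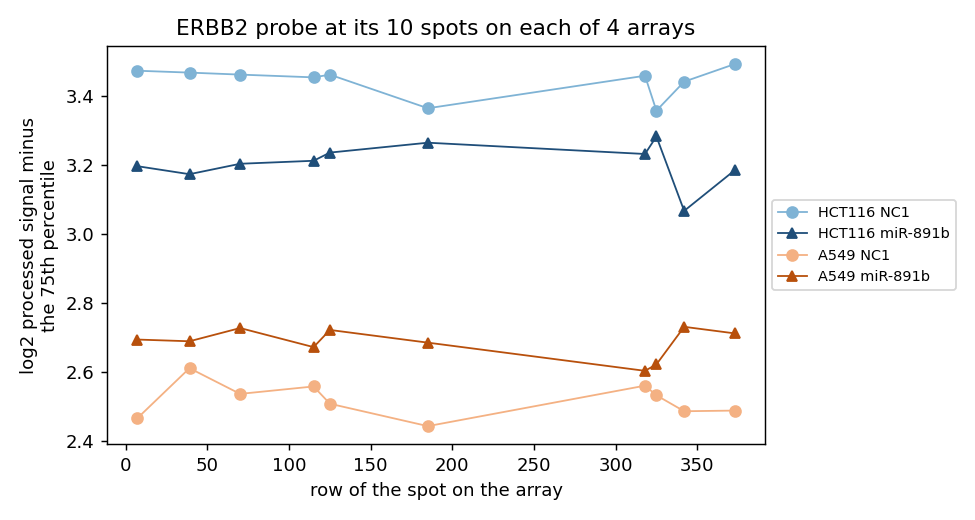
Level of ERBB2 probe 1 at its 10 spots on each of the 4 arrays, as log2 processed signal minus the 75th percentile, against the row of the spot on the array, with lines joining spots of 1 array. The miR-891b spots lie below the NC1 spots at every position in HCT116 and above them in A549, and the lines do not cross.

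ERBB3, the neuregulin receptor, also depended on the probe read. Probe 1 is designed on variant s, a short form that lacks the membrane span (chr12:56479217-56479276, hg19), and gave 1.10 with NC1 and 1.06 with miR-891b in HCT116, and -0.16 and -0.51 in A549. Both HCT116 arrays were above both A549 arrays, and the changes were -0.039 in HCT116 and -0.35 in A549. Probe 2 starts at base 4625 of the full-length variant 1 (chr12:56496160-56496219) and gave 0.69, 0.11, 0.91 and -0.36. Here both miR-891b arrays were below both NC1 arrays, with a change of -0.58 in HCT116 and of -1.26, a 2.40-fold lower signal, in A549. Between the NC1 arrays probe 1 was lower in A549 by -1.26 and probe 2 differed by 0.22. Probe 3, on variant 1 as well, was well above background on A549 NC1 alone and was at least 1.19-fold lower on A549 miR-891b. The count of members past 2-fold uses probe 1, whose mean level was slightly higher, and so does not hold the full-length ERBB3 value in A549.

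AREG, which encodes amphiregulin, was bright in HCT116. Probe 1 (chr4:75320518-75320577, hg19) gave 7.07 in HCT116 NC1, 6.85 in HCT116 miR-891b, 3.89 in A549 NC1 and 3.67 in A549 miR-891b. Probe 2, shown above, gave 5.62, 5.43, 2.72 and 2.43, with its HCT116 miR-891b spot in an area where 13.0% of nearby dim spots were above background. Both HCT116 arrays were above both A549 arrays on each probe, and on the NC1 arrays A549 was 9.10-fold lower by probe 1, a difference of -3.19, and -2.90 by probe 2. With miR-891b the changes were -0.22 in each line by probe 1, and -0.19 in HCT116 and -0.28 in A549 by probe 2. They lie well within the central 95% of measured genes, which ran from -0.76 to 0.72 in HCT116 and from -1.37 to 1.21 in A549.

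EREG, which encodes epiregulin, lies beside AREG, with 64.2 kb between their probes. Its probe (chr4:75254009-75254068, hg19) gave 5.25, 5.67, 1.80 and 2.01 in the same order of arrays. As with AREG, both HCT116 levels were above both A549 levels, and A549 NC1 was 10.9-fold lower than HCT116 NC1, a difference of -3.45. With miR-891b EREG was higher by 0.42 in HCT116 and by 0.21 in A549, the opposite sign to AREG in both lines. BTC, which encodes betacellulin, lies in the same stretch, and the probes of EREG, AREG and BTC span 421.9 kb (chr4:75254009-75675897, hg19). The BTC probe (chr4:75675838-75675897) gave -0.43, -0.90, -1.79 and -0.70. A549 NC1 was the lowest of the 4 and HCT116 NC1 the highest, with a change of -0.46 in HCT116 and of 1.09, or 2.13-fold higher, in A549. The HCT116 miR-891b spot of BTC lay where 27.0% of nearby dim spots were above background, so its HCT116 value rests on a disturbed area, whereas on A549 miR-891b that share was 1.11%. Normexp background correction with quantile normalization brought the A549 change of BTC to 0.36. On the NC1 arrays BTC was lower in A549, by -1.35, and on the miR-891b arrays it was higher there, by 0.20.

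HBEGF, whose product binds heparan sulphate as well as EGFR, was read by 1 probe (chr5:139713052-139713111, hg19). Its levels were -0.77 in HCT116 NC1, -0.19 in HCT116 miR-891b, -3.55 and not well above background in A549 NC1, and -2.33 in A549 miR-891b. Both HCT116 arrays were above both A549 arrays. By the signals as read, HBEGF was 6.88-fold higher in HCT116 than in A549 on the NC1 arrays, and it differed by -2.14 on the miR-891b arrays. With miR-891b it was 0.58 higher in HCT116 and, by the signals as read, 2.34-fold higher in A549. The fold values against A549 NC1 use its own dim signal, so they are plain ratios and not strict limits. HBEGF is therefore the gene left out of the A549 counts above. Its HCT116 miR-891b spot lay where 15.5% of nearby dim spots were above background, and normexp with quantile normalization gave 0.24 in HCT116. With that setting the mean change over the lines was 0.20, so the A549 change fell short of 2-fold.

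TGFA, which encodes transforming growth factor alpha, differed little by its brighter probe. Probe 1 (chr2:70683472-70683531, hg19) gave 1.12, 1.37, 1.53 and 1.47, a range of 0.41 over the 4 arrays, the smallest among the probes chosen for the 10 genes. The changes were 0.26 in HCT116 and -0.057 in A549. Probe 2 (chr2:70675319-70675378), further along the same variant, was dim at -2.39, -2.47, -3.54 and -4.98, the last not well above background. It gave -0.080 in HCT116, at least 1.31-fold lower with miR-891b in A549, and -1.15 between the NC1 arrays, where probe 1 gave 0.41.

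NRG1, which encodes the neuregulins that bind ERBB3, gave the largest differences of the family in HCT116 and between the lines. Probe 1 read -2.61 in HCT116 NC1, -0.51 in HCT116 miR-891b, 3.44 in A549 NC1 and 2.61 in A549 miR-891b. Probe 2, which starts at base 1005 of the same gamma variant where probe 1 starts at base 1073, read -3.29, -1.36, 2.98 and 2.11. Both A549 arrays were above both HCT116 arrays by either probe, and on the NC1 arrays A549 was 66.4-fold higher by probe 1, a difference of 6.05, and 6.27 higher by probe 2. With miR-891b NRG1 was 4.31-fold higher in HCT116 by probe 1, a change of 2.11, and 1.92 higher by probe 2. In A549 the changes were -0.83 and -0.87. The line difference was therefore smaller on the miR-891b arrays, where probe 1 was 8.69-fold higher in A549. Of all measured genes, 0.152% were as high or higher in HCT116 and 8.40% as low or lower in A549. As the probes are adjacent in the transcript they are not independent readings. AKR1B10, the A549 marker given above, was also higher on that HCT116 array, and its relation to the NRG1 value was not tested. The HCT116 miR-891b spots of NRG1 lay outside the stray areas, with 0.549% and 0.575% of nearby dim spots above background. Normexp with quantile normalization, which raises dim signals, lowered the HCT116 change to 0.63, short of 2-fold. It also lowered the difference between the NC1 arrays by probe 1 to 3.58, so the fold values between the lines depend on the background correction.

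ERRFI1, the feedback inhibitor of the receptors, was lower with miR-891b in both lines. Its probe (chr1:8072208-8072267, hg19) gave 7.04 in HCT116 NC1, 6.35 in HCT116 miR-891b, 4.58 in A549 NC1 and 3.70 in A549 miR-891b. Within each line the miR-891b array was the lower, by -0.69 in HCT116 and -0.88 in A549, and both HCT116 arrays were above both A549 arrays. Of all measured genes, 3.61% were as low or lower in HCT116 and 7.35% in A549. On the NC1 arrays A549 was 5.50-fold lower, a difference of -2.46. The change kept its sign in both lines with median scaling, quantile normalization alone and normexp with quantile normalization. These gave -0.65, -0.60 and -0.54 in HCT116, and -0.82, -0.73 and -0.69 in A549. The other alternatives could hardly differ, since they keep nearly the same scaling and ERRFI1 has 1 probe, bright and outside stray areas.

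**Figure D3:**
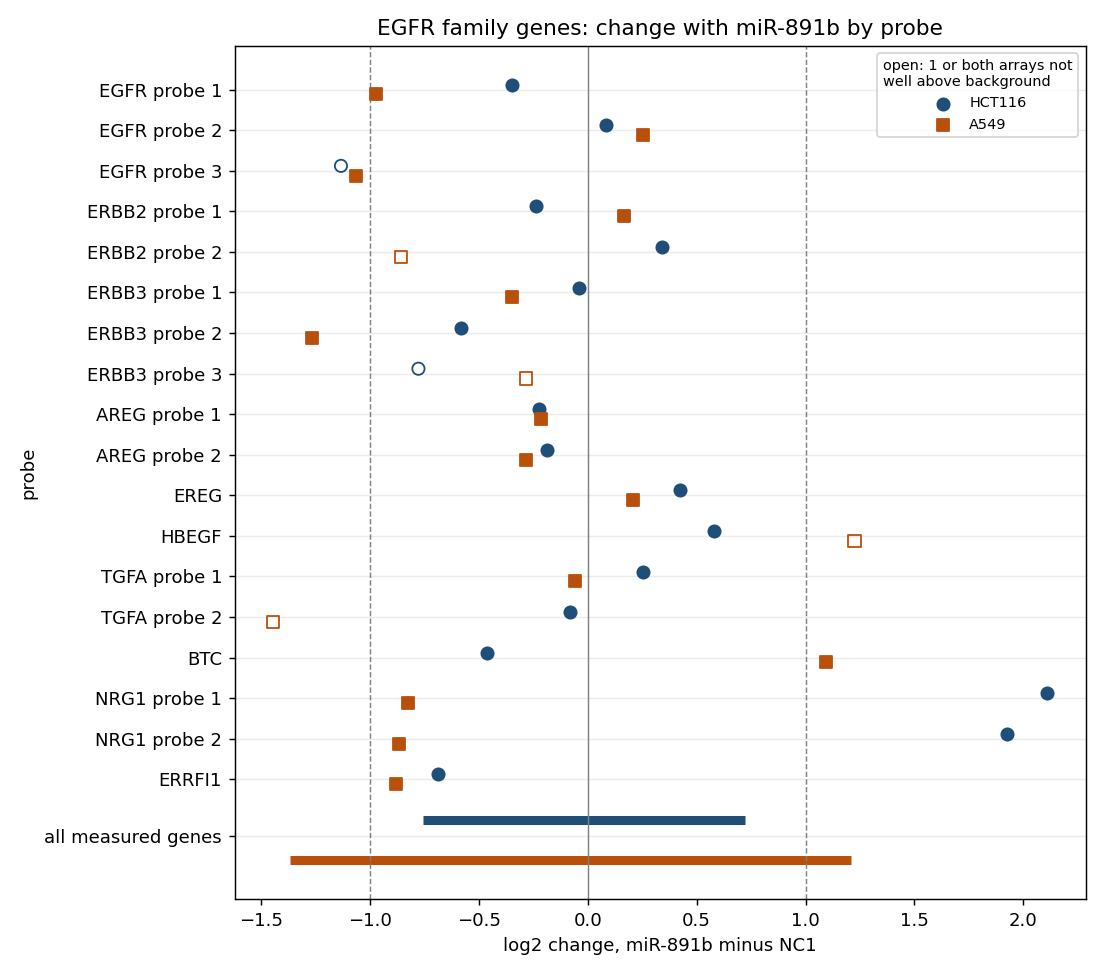
Change with miR-891b (log2, miR-891b minus NC1) of every probe in HCT116 and A549, with open symbols where 1 or both arrays were not well above background, dashed lines at 2-fold and bars for the central 95% of all measured genes. Both NRG1 probes lie right of 2-fold in HCT116 and left of 0 in A549, BTC lies right of 2-fold in A549, and the probes of EGFR, ERBB2 and ERBB3 are spread apart.

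Side by side, EGFR probe 1, AREG, ERBB3 probe 1 and ERRFI1 were lower with miR-891b in both lines, although the near-zero HCT116 value of ERBB3 turned to 0.033 with normexp and quantile normalization. EREG was higher in both, and so was HBEGF, by a ratio to the dim NC1 array in A549. ERBB2, TGFA, BTC and NRG1 had opposite signs in the lines by the probes chosen. ERBB2 turned sign in both lines with the mean over its probes, and the TGFA value in A549 changed sign with median scaling (centring on probes above background on all 4 arrays) and with normexp and quantile normalization. A limma model with treatment and line as terms, over 22712 genes and with 1 residual degree of freedom, called 0 genes at an adjusted p under 0.05 (0% of those tested). At an unadjusted p under 0.05 there were 1214. That is close to the number such a limit passes among 22712 genes without any effect. No member passed the adjusted limit. By this limma fit the mean change of ERRFI1 was -0.78 (SE 0.24, unadjusted p = 0.0274, adjusted p = 0.793), lower in 2 of 2 lines. For EGFR probe 1 it was -0.66 (SE 0.28, limma adjusted p = 0.793), also lower in 2 of 2. HBEGF was in the fit and did not pass it, and its mean in this fit is not given since A549 NC1 was not well above background. For NRG1 it was 0.64 (SE 0.75, limma adjusted p = 0.872), with the lines on either side of 0. The 2 lines are the only repeat in this fit. Its line term takes out the difference in level between the lines and slides. The p-values set the mean change against how far the changes of the 2 lines differ, with a spread shared over all genes. That shared spread counted for 3.18 degrees of freedom, beside 1 of the gene itself. These p-values hold no spread between cultures of a line.

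The lines were also compared on the miR-891b arrays. Of the 9 members measured on both pairs of arrays, 8 differed between A549 and HCT116 in the same direction with NC1 and with miR-891b, BTC being the other. Of the 6 at least 2-fold apart with NC1, 5 were so with miR-891b too, again without BTC. Among all 18064 genes measured on the 4 arrays, 80.7% kept their direction, and of the 4962 past 2-fold with NC1 70.8% were past it with miR-891b as well. With miR-891b the A549 minus HCT116 difference was -3.18 for AREG, -3.66 for EREG, -2.65 for ERRFI1, -1.57 for ERBB3 probe 1 and 3.12 for NRG1. For ERBB2 probe 1 it was -0.52, for EGFR probe 1 it was 0.25 and for TGFA probe 1 it was 0.097.

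Of the 6 remaining family genes, 2 were measured in HCT116, with 1 higher and 0 lower past 2-fold, and 3 in A549, with the same counts for another ligand. NRG4, another neuregulin, gave -1.66 with NC1 and -0.56 with miR-891b in HCT116, and 1.04 and 1.57 in A549. It was higher with miR-891b by 1.10 in HCT116 and by 0.53 in A549, and both A549 arrays were above both HCT116 arrays. EGF, the founding ligand, gave -4.04 and not well above background in HCT116 NC1, then -2.88, -3.54 and -0.88. It was at least 1.59-fold higher with miR-891b in HCT116 and 2.65 higher in A549. With normexp and quantile normalization 0 genes of this list were past 2-fold in either line. The changes of EGF in A549 and of NRG4 in HCT116 thus fell short of 2-fold there. NRG2 differed by -0.067 in HCT116 and by -0.26 in A549. The probes chosen for ERBB4, EPGN and NRG3 were not well above background on any array.

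The pathway lists are short, and against the shares of all genes given above a count of 0 or 1 past 2-fold does not set a list apart. Of 7 genes whose proteins release and mature the ligands, 6 were measured in HCT116, with 0 past 2-fold in either direction and a median of -0.0060. In A549 all 7 were measured and 1 was lower, RHBDL2, a rhomboid protease that can cut the EGF precursor, at -1.10, with its probes between -1.10 and -0.92. The median there was -0.011. Of 16 genes of receptor turnover, all were measured in HCT116, where 1 was lower, CBLB, a ubiquitin ligase of activated receptors. CBLB gave 0.95 in HCT116 NC1, -0.13 in HCT116 miR-891b, 1.47 in A549 NC1 and 1.31 in A549 miR-891b, changes of -1.08 and -0.16. In A549 15 were measured with 0 past 2-fold. The medians of this list were 0.018 in HCT116 and 0.042 in A549.

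Downstream, of the 16 adaptors and members of the RAS-ERK cascade 14 were measured in HCT116 and 15 in A549. By the probes chosen, 0 were past 2-fold in either line, with medians of -0.075 and -0.23. The probes of SOS1, an exchange factor for RAS, were far apart in HCT116. Its chosen probe gave -0.08 in HCT116 and -0.28 in A549, and its other probe gave 2.71 and -0.07. In the PI3K-AKT branch 11 of 12 genes were measured in HCT116 and 1 was higher, GAB2, a docking adaptor for the kinase, which gave -1.24, 0.073, 0.19 and 0.96 on the 4 arrays. It was higher with miR-891b by 1.31 in HCT116 and by 0.77 in A549, where all 12 were measured and 0 passed 2-fold. The branch had a median of -0.12 in HCT116 and 0.084 in A549.

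The 17 ERK feedback and output genes, which active ERK signalling induces in many cells, were all measured in both lines. In HCT116 14 of 17 lay below 0, where 55.5% of all measured genes did, 0 passed 2-fold and the median was -0.43. In A549 7 of 17 lay below 0, where 55.6% of all measured genes did, and the median was 0.26. There CCND1, a cyclin of the G1 phase, was lower by -1.61, with levels of 2.38 and 0.77, and EPHA2, an ephrin receptor, was lower by -1.14. EPHA4, of the same receptor class, was higher by 1.02, and PHLDA1, an ERK-induced gene, by 1.00. No test was made of how the lines differ here. Between the NC1 arrays 9 of 17 were past 2-fold with A549 the lower and 0 with A549 the higher, where 16.2% and 11.1% of all genes were, with a median of -1.08 beside -0.10 over all genes. The lowest were EGR1 at -6.43, DUSP6, an ERK phosphatase, at -4.12, SPRY4, an inhibitor of the cascade, at -3.52 and DUSP5 at -3.22. These 4 were picked after their values were seen.

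**Figure D4:**
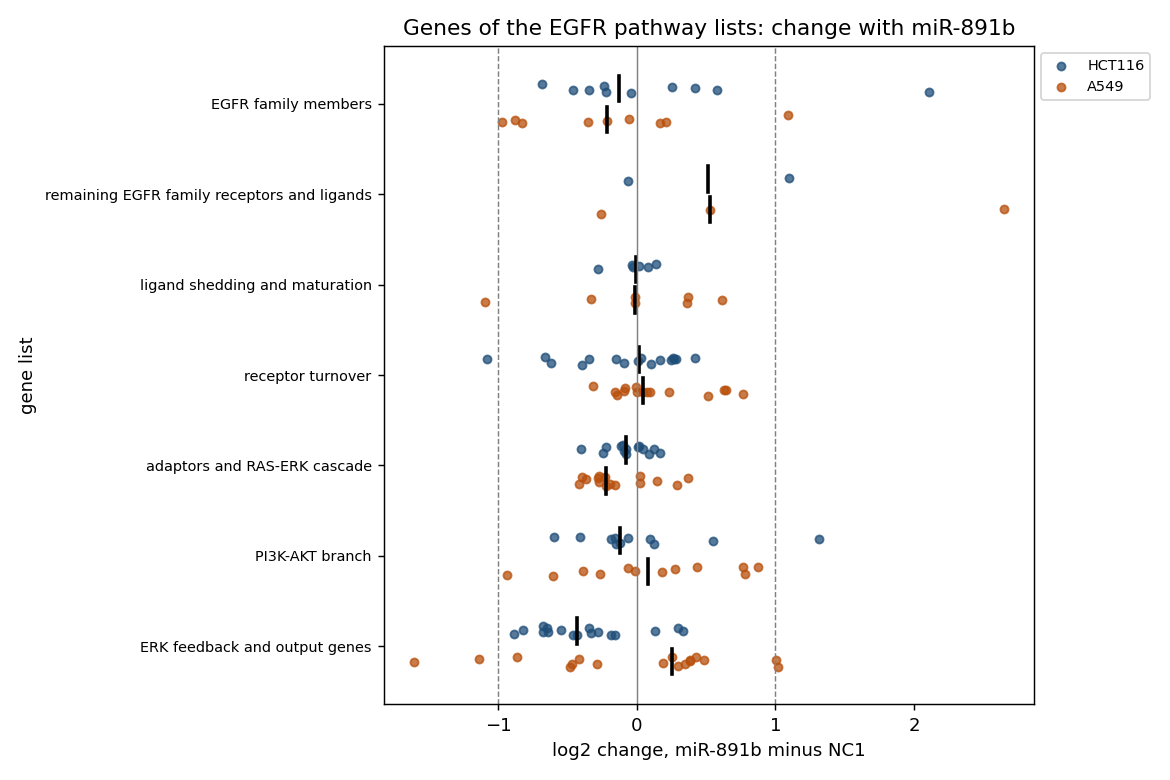
Change with miR-891b (log2, miR-891b minus NC1) of each measured gene of the family and of the 6 pathway lists in HCT116 and A549, with 1 point per gene, black bars at the medians and dashed lines at 2-fold. In the ERK feedback and output list the HCT116 median is -0.43 and the A549 median 0.26. By the probes chosen, the adaptors and RAS-ERK cascade stay within 2-fold in both lines.

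Patterns were compared over 12796 genes that had a RefSeq symbol and were well above background on all 4 arrays. By the root mean square difference of the 4 centred log2 levels, those closest to EGFR probe 1 were MYO10, an unconventional myosin (0.0087), ARRB1, beta-arrestin (0.037), and EMC9 (0.038). Those closest to AREG probe 1 were TNFRSF10C, a decoy receptor (0.091), EPS8L1 (0.092) and THEMIS2 (0.10). Within a distance of 0.2 lay 180 genes for EGFR and 36 for AREG, so with 4 arrays many genes share either pattern.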

How the data were processed

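Total RNA (100 ng, Cy3) of HCT116 and A549 cells with NC1 or miR-891b was hybridised to Agilent 1-colour arrays, per the labels, and samples were grouped by title. Per the file headers, Feature Extraction 11.5.1.1 subtracted background and spatial trends, and the scanner files as deposited give linear intensity, unscaled between arrays, with probe coordinates on hg19. The authors' deposited table is on a log2 scale and no source used here says how it was made. Its values differed from the log2 processed signal minus the 75th percentile by a median of at most 0.0069 on each array, and served as an alternative.

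Here, outlier spots were dropped, log2 processed signals were averaged per probe and each array's 75th percentile over gene probes was subtracted. Its signal was 54.9 with NC1 and 57.0 with miR-891b in HCT116, and 74.8 and 74.2 in A549. A gene was read by its probe of highest mean. Differences were called at 2-fold, without a test. The number of arrays limits the precision. The additive model (limma 3.58.1, R 4.3.3, Benjamini-Hochberg) took genes well above background on at least 2 of 4 arrays, was tested on simulated data, and had the line, which is also the slide, as a term.

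The members and lists were chosen with earlier results of these data known. Genes named were all members, list genes past 2-fold in a line (at most 4 per list and line) and the 3 genes closest in pattern to EGFR and AREG. Named outside this rule, after their values were seen, were markers, the other genes of the short list of remaining family members, SOS1, and 4 ERK output genes between the lines. Stray-signal areas were nearby dim spots within 10 rows and columns. Alternatives were median scaling, quantile normalization alone or after normexp (offset 50), the authors' values, the mean over probes, no filter on dim probes, outlier spots kept, stray areas left out, and 1.5-fold and 3-fold limits. Promoters and the microRNA came from RefSeq (GRCh38.p14), which supplied windows for 8 of the 10 genes.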

Additional observations from a re-analysis of the deposited data

Results flagged for a closer look

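In 4 genes the signal differed one way with miR-891b in one line and the opposite way in the other, with 1 array per group, so none of these differences was tested. The A549 change minus the HCT116 change was -2.93 for NRG1, from 2.11 in HCT116 and -0.83 in A549. It was 1.56 for BTC, from -0.46 and 1.09, with the HCT116 miR-891b spot in an area of stray signal. It was 0.41 for ERBB2 by the probe with 10 spots, and -0.31 for TGFA by probe 1.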

How the results depend on the processing

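Of 219 recomputed member differences, 157 moved by no more than the median SD between spots of a probe, 62 moved by more and 0 of those past 2-fold changed sign. With normexp and quantile normalization the members past 2-fold fell to 0 in HCT116 and 0 in A549, and the list counts became 0 for the remaining family genes in each line, 0 for ligand release in A549, 0 for turnover in HCT116, 0 and 1 for PI3K-AKT in HCT116 and A549, and 1 for ERK output in A549. Over all measured genes the counts fell as well, from 161 lower and 221 higher to 13 and 27 in HCT116. In A549 they fell from 1188 and 855 to 418 and 344. The offset of 50 in that setting is added to every signal, beside 75th percentile signals of 54.9 to 74.8. It thus narrows the differences of dim probes of any gene. With no filter on dim probes there were 2 members in A549, 2 remaining family genes in each line, 1 adaptor gene in A549, 2 PI3K-AKT genes in HCT116 and 6 genes called by the limma fit, all higher, of which the smallest adjusted p was 0.0198. Quantile normalization alone gave 1 PI3K-AKT gene in A549. The mean over probes gave 0 turnover genes and 1 adaptor gene in HCT116. Leaving out stray areas gave 0 members in A549, since BTC has no probe left. At 1.5-fold 2 members were counted in HCT116 and 4 in A549, and at 3-fold 0 in A549. The cause of these shifts was not tested. Between the NC1 arrays the members past 2-fold stayed within 1.5 times of 6, but not always with the same genes. ERBB3 was at -0.72 and BTC at -0.51 with normexp, and with the mean over probes ERBB3 was at -0.37 and EGFR entered at 1.03, which made 4 lower and 2 higher. Among members under 2-fold, signs turned for ERBB2 in HCT116 (0.34 without stray areas, where only probe 2 is left) and in A549 (-0.35 as the mean over probes), ERBB3 in HCT116 (0.033 with normexp), TGFA in A549 (0.062 with normexp) and TGFA between the NC1 arrays (-0.37 as the mean over probes). The labels give no replicate numbers, and the line term of the limma fit pairs the arrays of a line. Signal over background limits NRG1 in HCT116, HBEGF in A549, EGF in both lines and the dim probes of EGFR, ERBB2, ERBB3 and TGFA.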
